A study of Rattus norvegicus with 71 samples.

Results

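The genes described are 6 genes of zinc handling in the brain of rat pups at postnatal day 2: the metallothioneins Mt1 and Mt3, the zinc-sensing transcription factor Mtf1, and the zinc exporters Slc30a1, Slc30a3 and Slc30a4. They were taken by symbol from the 17494 genes of the count table, and all 6 were measured in all 71 animals. The set was chosen by earlier measured values of these same animals, among them the differences between exposed and control pups and between the sequencing batches, so those differences are given for the 6 genes as a description with no p-value. All pups were wild-type Sprague-Dawley rats, and RNA came from 1 coronal slice per brain that held hippocampus with cortical and subcortical tissue (the design text of the series names frontal cortex and hypothalamus instead). Dams of the 24 control pups (12 males and 12 females, 7 litters) received Freund's adjuvant with saline before pregnancy. Dams of the 47 exposed pups (23 males and 24 females, 20 litters) received the same adjuvant with synthetic peptides, so that they made autoantibodies linked to maternal autoantibody-related autism (MARA). The autoantibody patterns were CRMP1+CRMP2 (8 pups, 4 litters), LDHA/B+CRMP1+STIP1 (25 pups, 9 litters), CRMP1+GDA (6 pups, 3 litters) and STIP1+NSE (8 pups, 4 litters). Adjuvant is thus shared by all groups, and littermates share 1 immunised dam, so pups of a litter are not independent of each other. Sequencing ran in 2 batches, the first with 12 of the controls beside 16 LDHA/B+CRMP1+STIP1 pups and the second with the remaining 43 pups, of which 12 were controls.

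Metallothioneins are small, cysteine-rich proteins that bind zinc and copper and buffer their free levels in the cell. When free zinc rises, MTF-1, the product of Mtf1, binds short metal response elements in promoters and switches on metallothionein genes and Slc30a1, whose product ZnT1 carries zinc out of the cell across the plasma membrane. Mt1 and its neighbour Mt2A are expressed mainly by astrocytes in the brain and also respond to glucocorticoids and stress, while Mt3 is the brain-enriched metallothionein. Slc30a3 encodes ZnT3, which loads zinc into the synaptic vesicles of forebrain glutamatergic neurons such as those of the hippocampal mossy fibres. Slc30a4 encodes ZnT4, which moves zinc into endosomes and other vesicles.

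The metallothionein genes lie side by side on chromosome 19. In the rn7 build used for the counts, Mt1 spans 10826032 to 10827048 and Mt3 spans 10848754 to 10850158, both on the minus strand, with 3 exons each, and Mt2A lies between them at 10832009 to 10832783. Mtf1 lies on chromosome 5, from 137062376 to 137107136, with 11 exons on the plus strand. Slc30a1 is at 103491037 to 103494910 of chromosome 13 with 2 exons on the plus strand, Slc30a3 at 25277445 to 25284497 of chromosome 6 with 8 exons on the plus strand, and Slc30a4 at 109753271 to 109775306 of chromosome 3 with 7 exons on the minus strand. Promoter sequences of all 6 genes were found in RefSeq for another build, GRCr8, from 250 bases before to 50 bases after the gene start, and each was searched on both strands for the core letters of the metal response element, TGCACNC or TGCGCNC. The promoters of Mt1 and Mt3 are shown because these are the metallothioneins whose levels moved together, with the core letters of either strand in capitals. Their GRCr8 positions are chr19:10832926-10833225 and chr19:10856031-10856330, both read from the minus strand.
Mt1: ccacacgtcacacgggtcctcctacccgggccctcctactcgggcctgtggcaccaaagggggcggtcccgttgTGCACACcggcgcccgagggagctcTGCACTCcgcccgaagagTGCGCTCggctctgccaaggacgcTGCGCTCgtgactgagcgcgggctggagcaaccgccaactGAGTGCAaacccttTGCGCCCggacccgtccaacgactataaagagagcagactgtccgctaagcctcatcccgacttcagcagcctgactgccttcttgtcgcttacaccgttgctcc
Mt3: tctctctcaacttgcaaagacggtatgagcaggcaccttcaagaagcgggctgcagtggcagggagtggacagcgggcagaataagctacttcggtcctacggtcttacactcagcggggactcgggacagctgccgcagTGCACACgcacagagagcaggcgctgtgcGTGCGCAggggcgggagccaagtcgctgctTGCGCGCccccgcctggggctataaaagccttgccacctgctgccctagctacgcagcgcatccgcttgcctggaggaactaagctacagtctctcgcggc
Mt1 held 6 such cores, 5 on the gene's strand and 1 on the other, and 0.0388% of the 33469 rat promoters of this length held as many. Mt3 held 3 cores, 2 of them on its own strand, and so did Slc30a4, with all 3 on the other strand; 1.68% of promoters held at least 3. Mtf1 and Slc30a1 held 2 cores each, a count reached by 6.36% of promoters, and Slc30a3 held none in this window. At least 1 core was found in 24.2% of all promoters, and no 2 cores overlapped within a promoter of the 6 genes. A match of letters is a description of the sequence and not evidence of binding.

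Total counts per animal ranged from 24880182 to 36234952. The slices of the 2 batches differed in brain tissue: summed thalamus markers (5 genes of the list in the table, in counts scaled to the TMM-normalised library size, CPM) ranged from 55.4 to 130 CPM in batch 1 controls and from 263 to 912 CPM in batch 2 controls. Choroid plexus markers ranged from 24.1 to 132 CPM in batch 1 controls and from 164 to 2994 CPM in batch 2 controls, and dentate granule cell markers had medians of 107 and 269 CPM. No marker gene of any of these lists that is in the table was at 0 in every animal. In batch 2, 5 exposed slices lay below every batch 2 control in thalamus markers, 2 each from CRMP1+CRMP2 and LDHA/B+CRMP1+STIP1 and 1 from STIP1+NSE.

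Levels were compared between genes on the RPKM scale, CPM divided by exon length in kilobases. Mt3 was the most abundant member by far, at 173 ± 44.5 RPKM (mean ± SD, n = 71). Slc30a4 followed at 19.3 ± 3.24 RPKM, then Mt1 at 13.7 ± 4.11, Slc30a1 at 12.3 ± 1.22 and Slc30a3 at 10.4 ± 3.33 RPKM, and in this order Mt1 and Slc30a1, and Slc30a1 and Slc30a3, differed by less than the larger of their SDs. That order did not hold within batches: in batch 1 Slc30a1 (12.6 RPKM) stood above Mt1 (11.9) and Slc30a3 was at 6.91 RPKM, and in batch 2 Slc30a3 (12.6 RPKM) stood above Slc30a1 (12.1 RPKM), both by less than the SDs of the genes compared. Mtf1 was lowest at 4.48 ± 0.491 RPKM, a low level that is common for transcription factors. Among controls of batch 1 the SD was 29.5% of the mean for Mt1, 25.4% for Slc30a3 and 22.4% for Mt3, against 12.9% for Slc30a1, 10.6% for Mtf1 and 8.76% for Slc30a4. Mt1 rested on modest counts, from 34 to 259 per animal, against 629 to 3309 for Mt3. The metallothioneins are similar in sequence and the treatment of reads that match several genes is not given in the sources used here, so a share of reads could have been assigned to the wrong copy.

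Mt1 was lower on average in every exposed group than in the controls of its own batch. In batch 2 the controls ranged from 4.93 to 8.66 CPM with a median of 6.39 CPM. The 8 CRMP1+CRMP2 pups ranged from 1.31 to 6.98 CPM with a median of 4.65 CPM. Among these pups 6 of 8 lay below the lowest control and 7 of 8 below the control median. The mean of 4.34 ± 1.78 CPM was 0.645 times that of the controls (6.72 ± 1.26 CPM, n = 12). LDHA/B+CRMP1+STIP1 pups of batch 2 ranged from 4.85 to 7.16 CPM (median 5.05 CPM, n = 9), with 8 of 9 below the control median and 1 below the lowest control. CRMP1+GDA pups ranged from 4.52 to 7.49 CPM (median 6.07 CPM, n = 6) and STIP1+NSE pups from 4.01 to 8.40 CPM (median 6.04 CPM, n = 8), and both groups lay largely within the control range. The pattern sequenced in both batches kept the same order in batch 1. There, controls ranged from 3.22 to 9.33 CPM (median 5.43 CPM, n = 12) and LDHA/B+CRMP1+STIP1 pups from 2.15 to 5.74 CPM (median 3.81 CPM, n = 16). The groups overlapped, with 15 of 16 exposed pups below the control median and 3 below the lowest control. These pups came from few litters. The 3 control litters of batch 1 had means of 5.89, 6.79 and 4.005 CPM. The last of these lay within the range of the 4 exposed litter means, 3.39 to 4.51 CPM. In bulk slices, fewer cells of a type and less RNA per cell cannot be told apart.

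**Figure D1:**
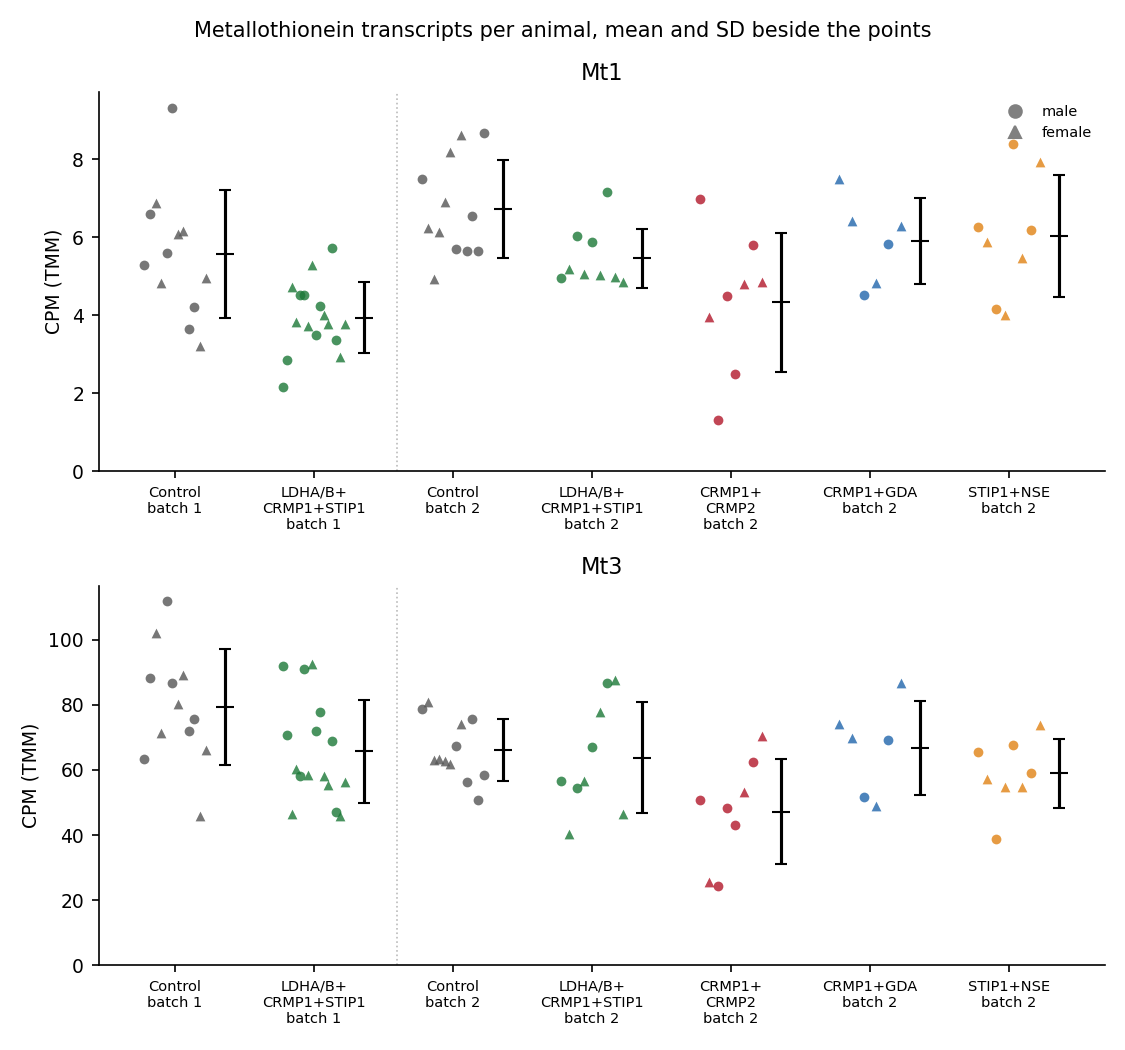
CPM (TMM scaled) of Mt1 (top) and Mt3 (bottom) in each of the 71 animals, by group and batch; circles are males, triangles females, and bars beside the points give the mean and SD. Mt1 lay below the lowest batch 2 control (4.93 CPM) in 6 of 8 CRMP1+CRMP2 pups, and the 2 lowest Mt3 values, 24.3 and 25.5 CPM, were both from that group.

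Mt3 differed from controls mostly in CRMP1+CRMP2 pups. Batch 2 controls ranged from 50.7 to 80.8 CPM (median 63.2 CPM) and CRMP1+CRMP2 pups from 24.3 to 70.5 CPM (median 49.5 CPM), with 4 of 8 below the lowest control. Their mean of 47.2 ± 16.2 CPM was 0.714 times the control mean of 66.1 ± 9.42 CPM. CRMP1+GDA pups (66.7 ± 14.3 CPM) had nearly the control mean, and LDHA/B+CRMP1+STIP1 (63.7 ± 17.1 CPM) and STIP1+NSE pups (59.0 ± 10.6 CPM) lay within 1 SD of it. In batch 1 the LDHA/B+CRMP1+STIP1 pups averaged 65.7 ± 15.9 CPM and the controls 79.4 ± 17.8 CPM, with 13 of 16 exposed pups below the control median. The 2 lowest CRMP1+CRMP2 pups, at 24.3 CPM (replicate 3) and 25.5 CPM (replicate 2), were also the 2 of that group below all batch 2 controls in thalamus markers (204 and 68.7 CPM). Those same 2 slices had the lowest dentate granule cell markers of the group (116 and 103 CPM), the lowest astrocyte markers (372 and 390 CPM) and the highest forebrain glutamatergic markers (1706 and 1642 CPM), and the part of these tissue differences in the Mt3 values was not tested.

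In the fits across all genes (edgeR, exposure with the first surrogate variable), the log2 fold change of Mt1 was -0.38 ± 0.09 (SE) over all exposed pups. CRMP1+CRMP2 gave -0.64 ± 0.18, STIP1+NSE gave -0.23 ± 0.15, CRMP1+GDA gave -0.29 ± 0.15, and LDHA/B+CRMP1+STIP1 gave -0.37 ± 0.08. Each pattern was fitted against all 24 controls of both batches, also where the pattern was sequenced in batch 2 alone. These values are thus not the differences from batch 2 control means given above. As the comparisons share the same controls, they are not independent of each other. Against its own batch's controls, LDHA/B+CRMP1+STIP1 gave -0.50 ± 0.14 in batch 1 and -0.31 ± 0.11 in batch 2. For Mt3 the value over all exposed pups was -0.24 ± 0.09. It was -0.62 ± 0.16 for CRMP1+CRMP2 pups, -0.08 ± 0.15 for CRMP1+GDA pups, -0.25 ± 0.13 for STIP1+NSE pups and -0.16 ± 0.09 for LDHA/B+CRMP1+STIP1 pups. In CRMP1+CRMP2, 2 of the 6 members (Mt1 and Mt3, both lower) passed the threshold of a false discovery rate (FDR) under 0.1, where 11.4% of all genes tested passed and 6.56% passed in the lower direction. The members were picked with this contrast known, so nothing is read from that count. Without the 2 slices low in thalamus markers, an alternative chosen after seeing the data, Mt1 in CRMP1+CRMP2 was -0.52 ± 0.17 and Mt3 was -0.34 ± 0.14, and the genes called over the whole table went from 1445 to 5.

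**Figure D2:**
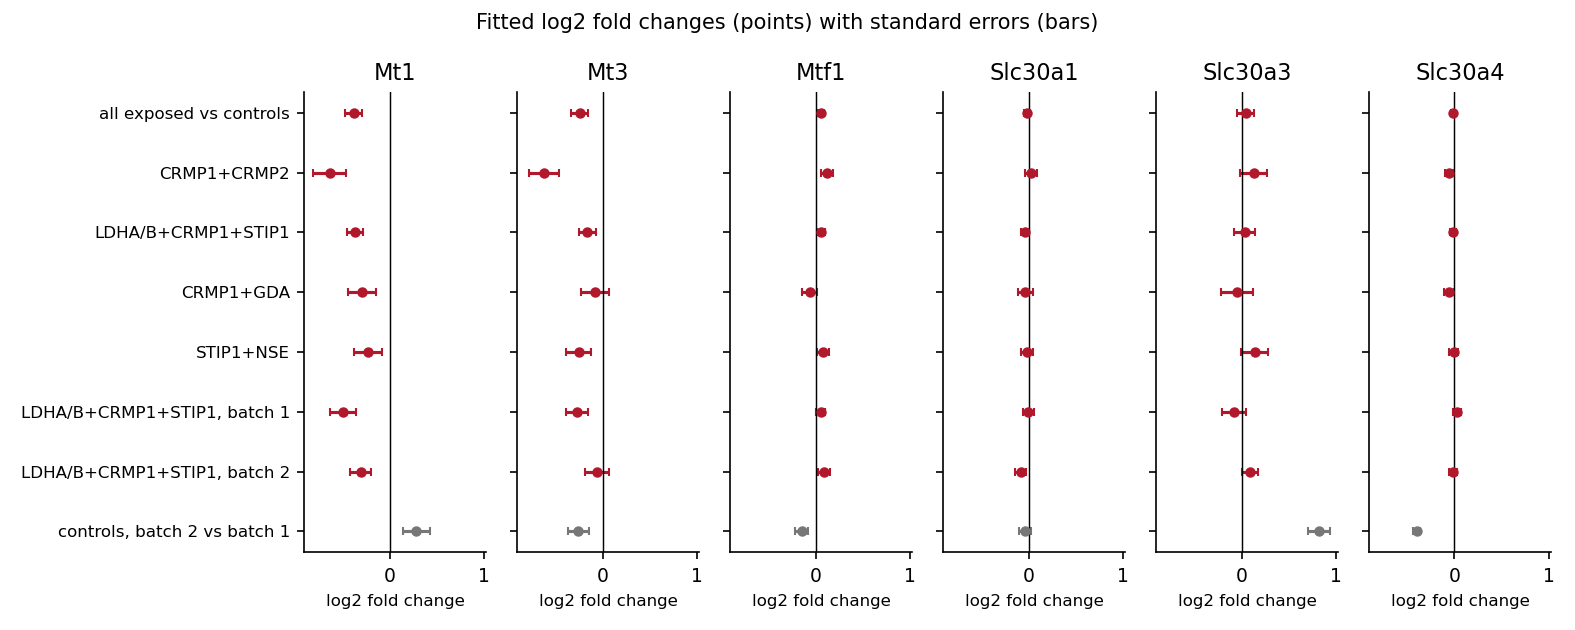
Fitted log2 fold changes of the 6 genes (points) with standard errors (bars) in 7 comparisons of exposed with control pups (red) and in batch 2 against batch 1 controls (grey). Mt1 lies left of 0 in all exposure comparisons, the other genes apart from Mt3 stay near 0, and Slc30a3 (0.82) and Slc30a4 (-0.40) move between batches of control pups.

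The fold changes of Mtf1 and of the 3 exporters with exposure were small. Mtf1 had a log2 fold change of 0.06 ± 0.04 over all exposed pups and of 0.12 ± 0.06 in CRMP1+CRMP2, where its CPM ranged from 19.6 to 29.98 (median 24.5) against 18.9 to 25.99 (median 21.7) in batch 2 controls. The groups overlapped, with 2 of 8 CRMP1+CRMP2 pups above the highest control and 1 of 8 below the control median. In batch 2, 1 of 9 LDHA/B+CRMP1+STIP1 pups, 1 of 8 STIP1+NSE pups and 4 of 6 CRMP1+GDA pups lay below the control median of Mtf1, and 4 of 16 LDHA/B+CRMP1+STIP1 pups did so in batch 1. Slc30a1, the plasma membrane exporter and a known MTF-1 target, had values between -0.08 and 0.03 in all 7 exposure comparisons. Its CPM averaged 32.7 ± 3.57 in CRMP1+CRMP2 and 32.04 ± 2.59 in batch 2 controls. Slc30a3 lay between -0.08 and 0.14 with SEs of 0.08 to 0.17, and Slc30a4 between -0.06 and 0.03 with SEs of 0.02 to 0.06. Exposed and control pups of a batch overlapped for each of these 4 genes.

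Mt2A, the metallothionein gene between Mt1 and Mt3 and not a member, was fitted as part of the list of other metallothioneins. This list and the other gene lists were also chosen with earlier results of these data known. Their adjusted p-values for exposure and batch are therefore no fresh tests. Of 5 listed names, 2 were in the table (Mt2A and Mt4). Mt2A was lower in CRMP1+CRMP2, at 4.54 ± 1.74 CPM against 6.32 ± 2.02 CPM in batch 2 controls, with 4 of 8 pups below the lowest of these controls. Against the controls of both batches its log2 fold change was -0.60 ± 0.20 (edgeR quasi-likelihood test, adjusted p = 0.0676). That call did not hold in batch 2 alone (-0.45, adjusted p = 0.23), with litter as a random effect (-0.70, adjusted p = 0.163), or without the 2 slices low in thalamus markers (-0.36, adjusted p = 0.48). Leaving out 1 of 11 litters at a time gave -0.80 to -0.44 with adjusted p from 0.0215 to 0.492, and 5 of the 11 fits lost the call. Over all exposed pups it was -0.33 and did not pass (adjusted p = 0.242). The lower value was not limited to CRMP1+CRMP2. Mt2A was -0.43 ± 0.18 for STIP1+NSE, -0.28 ± 0.10 for LDHA/B+CRMP1+STIP1 and -0.02 ± 0.20 for CRMP1+GDA. Within batches, LDHA/B+CRMP1+STIP1 gave -0.40 ± 0.13 in batch 1 and -0.15 ± 0.16 in batch 2. None of these passed. As Mt2A lies beside Mt1 and shares much of its sequence, it is no independent measurement of the locus.

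Among the other zinc transporters, 1 gene passed in CRMP1+CRMP2. Of the 7 other exporters 6 were tested and none passed, with 1 lower at an unadjusted p under 0.05. Of the 14 importers 13 were tested and 1 passed. The importers Slc39a8 (0.25, edgeR adjusted p = 0.136) and Slc39a14 (0.20, edgeR adjusted p = 0.193) were higher at an unadjusted p under 0.05 and did not pass. The importer that passed was Slc39a4, which encodes ZIP4, known for zinc uptake in the gut. Its log2 fold change of 2.16 ± 0.67 (edgeR, adjusted p = 0.0551) rested mainly on 1 pup at 5.89 CPM, whereas the median of the group was 0.152 CPM and controls of batch 2 reached 0.62 CPM. That pup (replicate 2) also had the highest pineal markers of all animals, 247 CPM against at most 6.67 CPM in controls, and the highest choroid plexus markers (3518 CPM). A further CRMP1+CRMP2 pup (replicate 6) had 1.04 CPM of Slc39a4 with 69.5 CPM of pineal markers, and 1 STIP1+NSE pup (replicate 5) had 1.30 CPM with 86.3 CPM of pineal markers. STIP1+NSE replicate 3 had 0.78 CPM with 46.4 CPM of pineal markers. CRMP1+GDA replicate 5 had 40.6 CPM of pineal markers but only 0.29 CPM of Slc39a4, within the control range. Without the 2 slices low in thalamus markers, CRMP1+CRMP2 replicate 2 among them, Slc39a4 no longer passed the filter on low counts. In batch 2 alone its log2 fold change was 1.10 (edgeR, adjusted p = 0.423). Counting metallothioneins with the transporters, 2 of 21 tested genes of the zinc list passed in CRMP1+CRMP2, 1 in each direction, close to the 11.4% of all genes that passed there, and 0 passed with litter as a random effect. The list's median log2 fold change was 0.04 against 0.01 for all genes. In the other exposure comparisons edgeR called no gene of the zinc list. Of all genes, 0.0321% passed over all exposed pups, 0% for CRMP1+GDA, 0.0474% for STIP1+NSE and 0.0157% for LDHA/B+CRMP1+STIP1 (0.0161% within batch 1 and 0% within batch 2). At an unadjusted p under 0.05, the zinc list had 1 gene lower of 18 over all exposed pups, none of 20 for CRMP1+GDA, 2 lower of 20 for STIP1+NSE, and 1 higher with 1 lower of 20 for LDHA/B+CRMP1+STIP1. DESeq2 also called no gene of the list in these comparisons. Within LDHA/B+CRMP1+STIP1, 1 of 19 was lower in batch 1 and 1 of 19 higher in batch 2 at that p.

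Copper shares metallothioneins as a ligand, and 3 of 9 copper handling genes were lower in CRMP1+CRMP2 with none higher, where 6.56% of all genes passed in the lower direction. None of the 3 passed with litter as a random effect (adjusted p from 0.273 to 0.305). They were Commd1, which takes part in copper export (-0.25 ± 0.09, adjusted p = 0.0781), Ccs, the copper chaperone that loads superoxide dismutase (-0.23 ± 0.08, adjusted p = 0.0927), and Sod1, the copper and zinc superoxide dismutase (-0.25 ± 0.09, adjusted p = 0.094), all by edgeR. In batch 2 alone Sod1 passed (-0.35, adjusted p = 0.0818), and Ccs and Commd1 did not (adjusted p = 0.113 and 0.156). With batch and sex as covariates Sod1 and Ccs passed (adjusted p = 0.0676 and 0.094), and Commd1 did not (adjusted p = 0.143). Without the 2 slices low in thalamus markers Commd1, Ccs and Sod1 had values of -0.21, -0.28 and -0.28. Their adjusted p then ran from 0.293 to 0.393, so none passed. Of 11 fits without 1 litter, 6 or 7 lost each call. The list's median log2 fold change was -0.15. None of 12 glucocorticoid-responsive genes passed there (none at an unadjusted p under 0.05 either), with a median of 0.02, and none of 8 genes of zinc-loaded synaptic vesicles passed (2 lower at an unadjusted p under 0.05), with a median of -0.03.

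Slc30a3 and Slc30a4 differed between the batches in opposite directions. Slc30a3, the synaptic vesicle zinc transporter, ranged from 7.21 to 18.1 CPM in batch 1 controls (median 11.1 CPM) and from 17.96 to 27.7 CPM in batch 2 controls (median 20.3 CPM). The upper value of batch 1 lay just above the lowest of batch 2, and 11 of 12 batch 2 controls lay above every batch 1 control. Its log2 fold change of batch 2 against batch 1 was 0.82 ± 0.11. Slc30a4 went the other way, from 108 to 137 CPM in batch 1 controls (median 124 CPM) and from 85.3 to 100.5 CPM in batch 2 controls (median 93.3 CPM), with no overlap and a log2 fold change of -0.40 ± 0.04. The LDHA/B+CRMP1+STIP1 pups showed the same split, at 11.4 ± 3.03 CPM in batch 1 and 22.7 ± 3.35 CPM in batch 2 for Slc30a3 and at 124.6 ± 10.7 and 91.8 ± 7.73 CPM for Slc30a4. Mt3 was lower in batch 2 controls (-0.26 ± 0.11), Mtf1 was lower (-0.15 ± 0.07), Slc30a1 was level (-0.04 ± 0.07), and Mt1 was higher (0.28 ± 0.14). Of the 6 members 4 passed FDR under 0.1, 1 higher and 3 lower, where 41.5% of all genes passed, 21.3% higher and 20.2% lower, and nothing is read from the count.

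**Figure D3:**
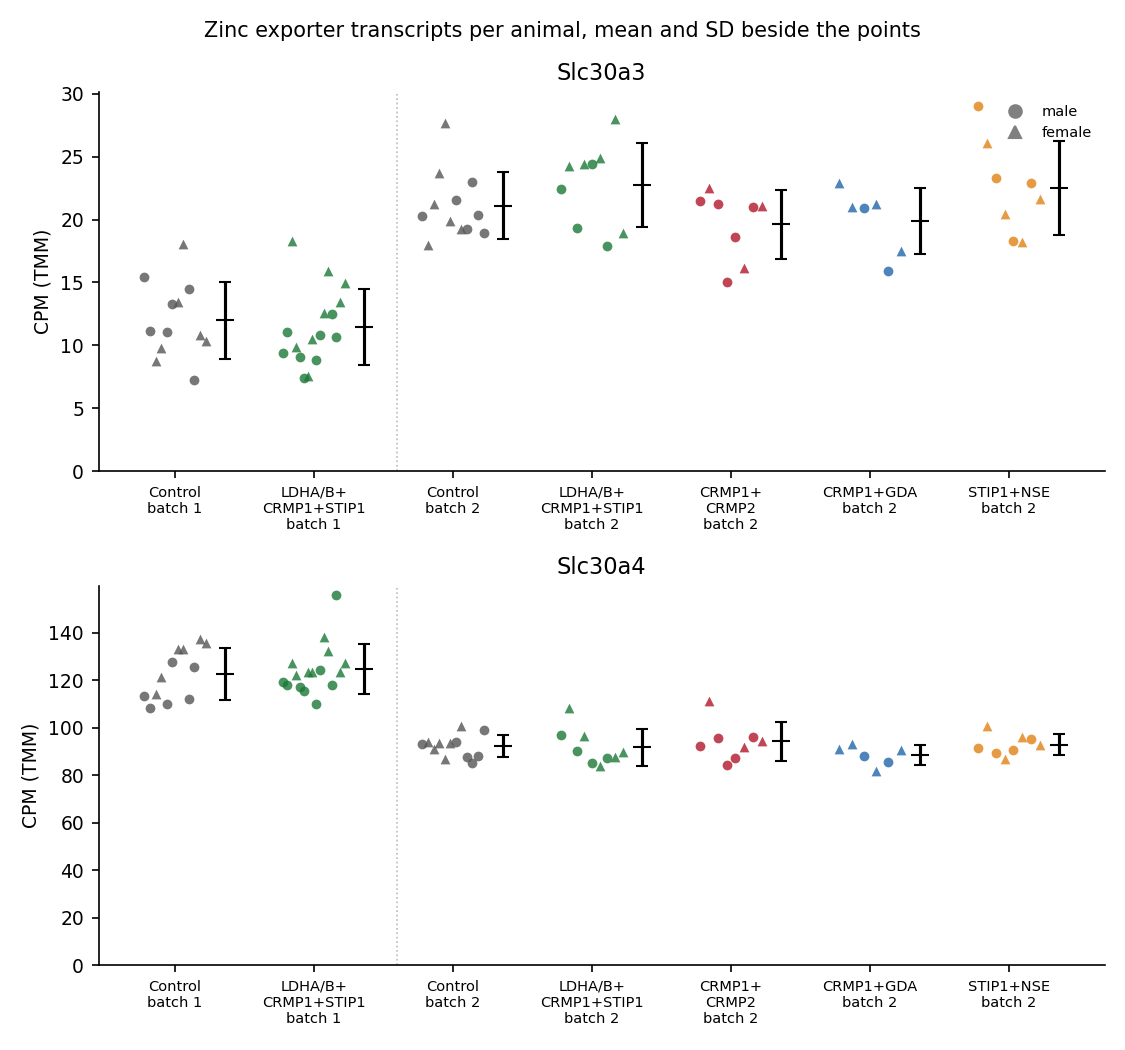
CPM (TMM scaled) of Slc30a3 (top) and Slc30a4 (bottom) in each of the 71 animals, by group and batch, with the mean and SD beside the points. For Slc30a4 all 12 batch 2 controls lay below all 12 batch 1 controls. In batch 2, 1 CRMP1+CRMP2 pup (111 CPM) and 1 LDHA/B+CRMP1+STIP1 pup (108.4 CPM), both from slices low in thalamus markers, lay above the lowest batch 1 control (108.3 CPM).

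Beside this difference stand the tissue markers of the slices. Forebrain glutamatergic neuron markers had a median sum of 1352 CPM in batch 1 controls and of 898 CPM in batch 2 controls. Slc30a3 was thus higher in the batch with the lower sum and Slc30a4 was lower there. Not every gene of that sum followed it. Slc17a7, also on the list of zinc-loaded vesicle genes, was higher in batch 2 controls (210 ± 16.6 against 178 ± 40.5 CPM). Thalamus markers had medians of 75.2 and 743 CPM. Batch and tissue content cannot be told apart here. In the zinc list, 6 of 20 genes passed between batches of controls (edgeR), 5 higher in batch 2 and 1 lower, where 41.5% of all genes passed, and 2 passed with litter as a random effect. The importers Slc39a3 (0.31 ± 0.06, adjusted p = 0.000192), Slc39a7 (0.14 ± 0.04), Slc39a6 (0.11 ± 0.05) and Slc39a12 (1.10 ± 0.47) and the metallothionein Mt4 (1.62 ± 0.46) were higher, and the exporter Slc30a5 was lower (-0.14 ± 0.05). Mt4 stayed near the limit of detection, at 0.205 ± 0.206 and 0.644 ± 0.293 CPM. Of the 12 glucocorticoid-responsive genes 3 were higher in batch 2 and 3 lower (edgeR), and 3 passed in all with litter as a random effect. The transcription factor Klf9 was lower (-1.05 ± 0.09, adjusted p = 1.42e-09), whereas Tsc22d3, another gene induced by glucocorticoids, was higher (0.24 ± 0.05, adjusted p = 0.00141). Of 9 copper handling genes 2 were higher, Sod1 among them (0.55 ± 0.08, adjusted p = 1.94e-05), and 1 was lower. Of 8 genes of zinc-loaded synaptic vesicles 3 were higher and 1 was lower (edgeR). The higher ones were Slc17a7 (0.25 ± 0.10, adjusted p = 0.0594), Ap3s1 (0.16 ± 0.05, adjusted p = 0.0117) and Ap3s2 (0.18 ± 0.06, adjusted p = 0.015). The lower one was Ap3m1, a subunit of the AP-3 vesicle sorting complex (-0.19 ± 0.04, adjusted p = 0.00145).

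Sex, which the choice of genes did not use, could be tested. The main fit for sex held no term for litter. Among batch 2 controls, a litter of 4 pups was all female and another litter of 4 pups was all male. In those pups sex and litter cannot be told apart, and the intervals given here do not allow for this. None of the 6 members passed between males and females (edgeR, group and batch as terms), where 0.0641% of all genes did. Slc30a4 came closest, lower in males by a log2 value of -0.07 ± 0.02 (adjusted p = 0.987), and it was the only member with an unadjusted p under 0.05. For Mt1 the male minus female difference was 0.01, with a 95% interval from -0.16 to 0.19, and for Mt3 it was 0.05 (-0.11 to 0.21). None of the 18 tested genes of the zinc list passed, and none had an unadjusted p under 0.05. DESeq2 called no member and no gene of the zinc list either.

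The exposure difference was also compared between the sexes and, for LDHA/B+CRMP1+STIP1, between the batches. No member passed the exposure by sex interaction, where 0% of all genes passed in edgeR (282 genes with a positive and 160 with a negative interaction had an unadjusted p under 0.05, and DESeq2 called 7), and no member had an unadjusted p under 0.05. The interaction of Mt1 was -0.06 on the log2 scale, with a 95% interval from -0.45 to 0.33. That fit held no term for litter either, so its interval does not allow for the single-sex litters among the batch 2 controls. No member passed the exposure by batch interaction either, where 0.110% of genes passed. The exposure difference of Mt1 was 0.19 less negative in batch 2 (95% interval from -0.18 to 0.56) and that of Mt3 0.22 less negative (-0.13 to 0.58). These intervals are wide enough to hold differences as large as the exposure values themselves. DESeq2 called no member in either interaction.

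Of the members, Mt3 had the largest share of its variance between litters. Within groups and batches that share was 0.53, against 0.312 where litter has no effect (one-sided permutation test over 71 animals in 27 litters, adjusted p = 0.0951). The shares of the other members lay between 0.387 (Mtf1) and 0.444 (Mt1), and none passed an adjusted p of 0.05 in these permutation tests. In CRMP1+CRMP2, the littermates that differed most in Mt3 were those of which 1 was a slice low in thalamus markers (replicates 2 and 3). Replicates 3 and 4, brothers, had 1.31 and 4.50 CPM of Mt1 and 24.3 and 48.3 CPM of Mt3, and replicates 1 and 2, a brother and sister, had 6.98 and 3.97 CPM of Mt1 and 50.8 and 25.5 CPM of Mt3. In the other 2 litters, replicates 5 and 6 had 2.504 and 4.79 CPM of Mt1 and 42.96 and 53.1 CPM of Mt3, and replicates 7 and 8 had 5.79 and 4.85 CPM of Mt1 and 62.4 and 70.5 CPM of Mt3.

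Across animals, the metallothioneins varied together. With each value centred on its group and batch, Mt1 and Mt3 had r = 0.51 and rho = 0.50 over 71 animals (permutation test within groups and batches, adjusted p = 0.00157 for r and 0.000375 for rho over 15 pairs). The correlation was 0.34 in batch 1 and 0.61 in batch 2, and 0.52 without the 2 animals farthest from the Mt1 median. With the surrogate variable and exposure removed instead, r of this pair was 0.49 (permutation adjusted p = 0.0127). It was then 0.16 in batch 1, 0.63 in batch 2 and 0.31 without the 2 farthest animals. Mt2A was correlated with both Mt1 (r = 0.53, rho = 0.54, permutation adjusted p = 0.00012 for r and 6e-05 for rho) and Mt3 (r = 0.57, rho = 0.55, permutation adjusted p = 6e-05 for each). Mtf1, the metallothionein regulator, was lower where Mt3 was higher, with r = -0.53 and rho = -0.52 (permutation adjusted p = 0.00015 for each, which rests on the smallest p that 100000 permutations can give). Such an r was not particular to Mtf1. Ranked from the highest r with Mt3 down, it stood at 11744 of 12476 genes, so many genes had a more negative r. The correlation of Mtf1 with Mt3 was -0.33 in batch 1 and -0.64 in batch 2, and -0.47 without the 2 farthest animals. With the surrogate variable and exposure removed, it was -0.46 (permutation adjusted p = 0.0015), with -0.095 in batch 1 and -0.61 in batch 2. Slc30a4 and Mt3 had r = -0.38 (permutation adjusted p = 0.0141) and rho = -0.28 (permutation adjusted p = 0.128), so the rank correlation did not pass. After the surrogate variable and exposure were removed, r for this pair was 0.05 (permutation adjusted p = 0.717), and without centring it was 0.09 (permutation adjusted p = 0.999). The other 12 pairs did not pass, Mt1 with Mtf1 included (r = -0.32, rho = -0.26, permutation adjusted p = 0.0689 and 0.149). Littermates are not independent, and these permutations treat them as if they were.

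**Figure D4:**
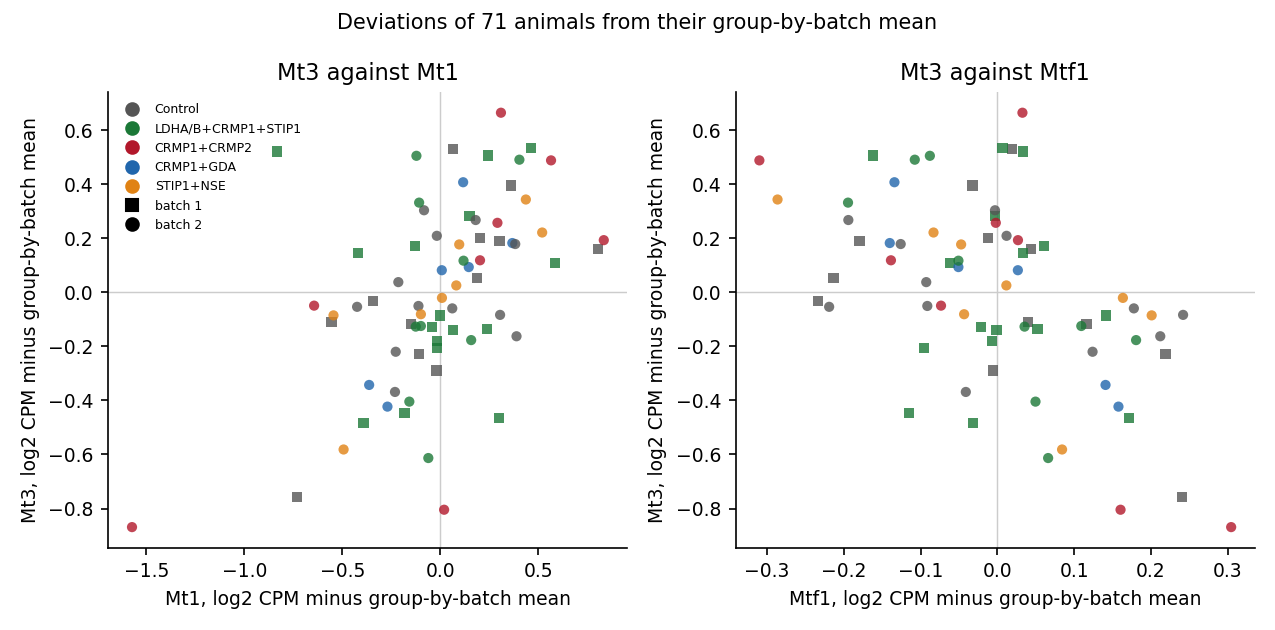
Deviation of Mt3 from its group-by-batch mean (log2 CPM) plotted against that of Mt1 (left) and of Mtf1 (right), 1 point per animal, coloured by group, squares for batch 1 and circles for batch 2. Mt3 was higher where Mt1 was higher (r = 0.51) and lower where Mtf1 was higher (r = -0.53), and the 2 lowest points in Mt3 are the CRMP1+CRMP2 slices low in thalamus markers.

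The members also moved with the tissue markers of the slice within groups and batches. Of 66 pairs of a member and a marker list, 22 passed an adjusted p of 0.05 in permutation tests on r, and 13 of these also passed on rho. Mt1 and Mt3 were higher in slices with more astrocyte markers (r = 0.40 and 0.50, rho = 0.38 and 0.41, permutation adjusted p = 0.0175 and 0.00198 for r) and with more radial glia markers (r = 0.40 and 0.50). Mt3 was lower in slices with more forebrain glutamatergic neuron markers (r = -0.54, rho = -0.52, permutation adjusted p = 0.00066 for r) and higher with more thalamus markers (r = 0.51, rho = 0.44). Its correlation with the glutamatergic markers was -0.79 in batch 1 and -0.41 in batch 2. Slc30a4 had the opposite pattern, higher with glutamatergic markers (r = 0.54, rho = 0.52, permutation adjusted p = 0.00033 for r) and lower with thalamus markers (r = -0.52, rho = -0.48). Slc30a3 was higher with glutamatergic markers (r = 0.37, rho = 0.36, permutation adjusted p = 0.0122 for r), the neurons in which ZnT3 is known to act, and lower with thalamus markers (r = -0.34). Slc30a1 was higher with choroid plexus markers (r = 0.37, rho = 0.34, permutation adjusted p = 0.0122 for r). Without the 2 farthest animals, the correlation of Mt3 was 0.39 with astrocyte and 0.40 with thalamus markers. Between CRMP1+CRMP2 pups and batch 2 controls the medians were 568.1 and 743 CPM for thalamus markers, 1018 and 898 CPM for glutamatergic markers, 243 and 269 CPM for dentate granule cell markers, 598 and 583 CPM for astrocyte markers, and 1197 and 1181 CPM for radial glia markers, and the ranges of all 5 sums overlapped. The part of slice composition in the exposure values of the members was not tested.

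**Figure D5:**
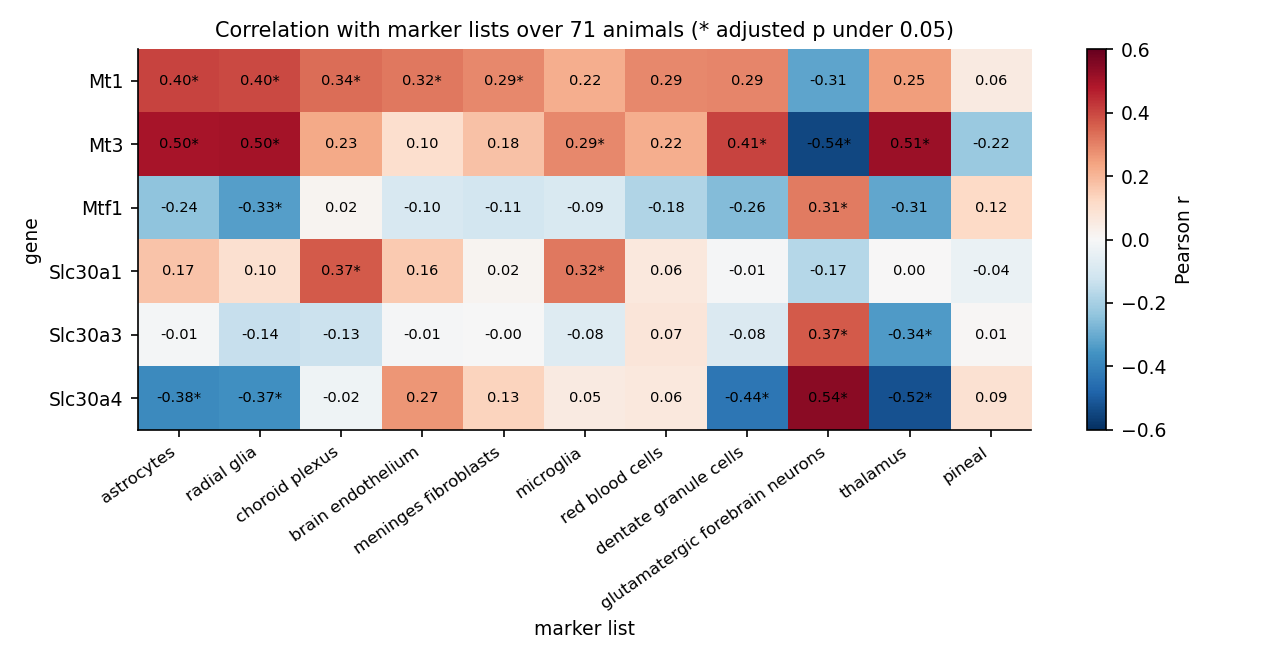
Pearson r between each of the 6 genes (rows) and 11 marker lists (columns) over 71 animals, centred on group and batch, with an asterisk where the adjusted p was under 0.05. Mt3 and Slc30a4 have opposite signs for glutamatergic neurons (-0.54 and 0.54) and thalamus (0.51 and -0.52).

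The genes whose levels followed a member most closely over the 71 animals, centred in the same way, were looked up among 12476 genes, and their r is a description without a test. For Mt3 they were Scp2 (r = 0.84), a lipid transfer protein, Dbi (0.82), the acyl-CoA binding protein, and Sod1 (0.81). Mt1 ranked only at 785 for Mt3, whereas Mt3 ranked at 54 and Mt2A at 29 for Mt1. Closest to Mt1 were Ndufa4l2 (0.64), a mitochondrial protein, Mlf1 (0.60) and Cpne2 (0.59). Slc30a4 was followed by Agtpbp1 (0.74), an enzyme that shortens tubulin tails, Osbpl1a (0.73), an oxysterol-binding protein, and Bend6 (0.72). Slc30a3 was followed by Klc2 (0.61), a kinesin light chain, Mark4 (0.59), a microtubule-affinity kinase, and Cdc25b (0.57), a cell cycle phosphatase. For Mtf1 they were Afap1 (0.68), Pkd2 (0.67) and Lrp6 (0.66), a Wnt co-receptor, and for Slc30a1 they were Thbs1 (0.53), Sulf1 (0.52) and Epas1 (0.50), the hypoxia-responsive factor HIF-2 alpha.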

How the data were processed

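RNA was extracted from 71 slices, and poly-A libraries were sequenced as paired 150-base reads. Per the submitters' processing notes and the study's methods, the authors aligned reads with STAR (version 2.5.4b) to rn7 and counted them per gene with featureCounts. The deposited values are raw counts per gene, with the summed exon length in bases as another column. Settings for strand and for reads matching several genes are not given in the sources used here. Of counts from 1 to 9, 74.5% were even, so both reads of a pair may have been counted, and halved counts were tried. The members and gene lists were chosen with earlier results of these data known. Batches follow the title series in the labels. Genes with at least 1 CPM in 8 samples (all exposed, sex, exposure by sex) or over 1 CPM in 2 samples (other comparisons) were kept and scaled by TMM. They were fitted with edgeR 4.0.16 (quasi-likelihood, robust, Benjamini-Hochberg over all genes tested) in R 4.3.3. Exposed against control fits over both batches held the first surrogate variable (sva 3.50.0), and those within a batch held sex. The other fits held no surrogate variable. The control batch comparison held sex, the batch interaction sex, batch and exposure, the sex interaction batch, sex and exposure, and the sex comparison group and batch. Alternatives used DESeq2 1.42.0, median-ratio scaling, no filter, litter as a random effect (limma 3.58.1), litter sums, other covariates and leaving out litters. On simulated counts for the CRMP1+CRMP2 comparison (12412 genes), 199 of 200 genes changed by a log2 value of 1 were recovered. Of the 218 genes called there, 19 were false. The simulation gave every gene the same dispersion of 0.02 and held no litter or slice effect. It checks that the fit runs as intended and does not give the power for smaller changes in these animals. Correlations used log2 CPM with a prior count of 2 and 100000 permutations within groups and batches. Named genes were the 6 members and the 3 genes most correlated with each. Pathway-list genes at FDR under 0.1 were also named, at most the 5 with the smallest p per comparison. Further genes of the zinc and synaptic vesicle lists called between control batches were named after their values were seen, as were Slc39a8 and Slc39a14 in CRMP1+CRMP2. P-values of the main fits and of the correlations take pups as the unit, with no term for litter. Exposure was given to the dams, so these p-values do not allow for the spread between litters.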

Additional observations from a re-analysis of the deposited data

Results flagged for a closer look

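In 24 combinations of a member and a group of 4 to 10 animals, 2 had an end animal far from the others of its group by Dixon's criterion; chance alone gives about 1 in 20. For Slc30a4, 1 CRMP1+CRMP2 pup (replicate 2) had 111 CPM, above the next at 96.2 CPM, and it is the slice with the lowest thalamus markers of its group (68.7 CPM) and the highest pineal markers (247 CPM). For Slc30a1, 1 CRMP1+GDA pup (replicate 3) had 24.7 CPM, below the next at 31.1 CPM.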

How the results depend on the processing

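Alternatives were compared for the counts of genes called and for the log2 fold changes of the 6 members. In CRMP1+CRMP2, 2 genes of the zinc list passed FDR under 0.1, and 0 passed with litter as a random effect, with batch and sex as covariates, in batch 2 alone, with counts summed per litter, or without the 2 slices low in thalamus markers. Leaving out 1 litter at a time gave 0 to 5 genes there, with 0 without either CRMP1+CRMP2 litter that holds one of those 2 slices and without 1 control litter of batch 1. Over the whole table that comparison called 1445 genes, 41 without the litter of replicates 3 and 4, 33 with litter as a random effect and 0 with counts summed per litter. Leaving out litters gave 0 to 1 genes for LDHA/B+CRMP1+STIP1 in batch 1, against 0. Between control batches 6 genes of the zinc list passed, and 2 with litter as a random effect. After removing the surrogate variable and exposure, 5 pairs of members passed in place of 3, with Mt3 and Slc30a4 no longer among them (r of 0.05 in place of -0.38), and 9 pairs of a member and a marker list in place of 22; without centring on groups and batches, 14 of the latter passed. The causes were not tested.

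Mt1 kept a negative exposure difference under every alternative run, from -0.83 to -0.50 in CRMP1+CRMP2 and from -0.44 to -0.32 over all exposed pups. Mt3 ranged from -0.84 to -0.34 in CRMP1+CRMP2 and from -0.31 to -0.09 over all exposed pups, with the weakest value under 7 principal components, and it changed sign in 3 of 18 alternatives for CRMP1+GDA and in 3 of 15 for LDHA/B+CRMP1+STIP1 in batch 2. The exposure by sex interaction of Mt3 reversed from -0.02 to 0.0077 with litter as a random effect. For exposure, no paired analysis was possible because the replicate numbers only follow the order of the samples and pair no animals across groups. Sex could be compared within litters, with litter as a fixed block in the litters that held both sexes. That fit called 3 genes higher and 6 lower in males of 12413 tested (FDR under 0.1). No member was among them, and the sex difference of no member changed sign against the main fit. Counting depth limits Mt1 most, with 34 counts in the lowest animal.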
